A study of Hevea brasiliensis with 2 samples.

Results

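The unigenes of cell cycle control, DNA replication and DNA repair were examined in latex of the rubber tree clones PR107 and CATAS8-79 (RY8-79 in the sample labels). They were taken from the deposited list of 6726 unigenes that the authors had called differentially expressed between the clones, out of 51192 unigenes with reads. Rows were kept when the text of the best Nr or Swissprot hit held at least 1 of 10 search words, such as cyclin, DNA polymerase, DNA repair, mitotic or topoisomerase. Of 68 rows with such a word, 9 also held protease, ubiquitin, F-box or calcium and were left out, so 59 unigenes remained.

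Each clone was sequenced as 1 library, made from pooled latex of 5 untreated virgin trees at the first tapping. The labels give the age as 3 years for both clones, and the study's methods describe older trees. The reads counted on unigenes summed to about 6870000 in PR107 and 6920000 in CATAS8-79, and the median unigene had 40 reads in PR107 and 38 in CATAS8-79. There are no replicates, so every value below describes 2 libraries, and a difference between them cannot be told apart from a difference between any 2 pools of trees.

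A cell divides after its DNA has been copied once and any damage has been dealt with. Cyclins bind and switch on cyclin-dependent kinases (CDKs), D-type cyclins at the start of the cycle and A- and B-type cyclins around DNA synthesis and mitosis, while CDK inhibitors hold the kinases back. DNA polymerases, the sliding clamp PCNA and the GINS complex work at the replication fork, topoisomerases release the twist that copying puts into DNA, and RAD54, RAD50 and RAD23 take part in repair. In the bark of the rubber tree, the laticifers that hold latex arise from the vascular cambium, and latex itself is the fluid cytoplasm that flows out of cut laticifers.

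Because the list had been chosen by the authors on the difference between these same 2 libraries, the size and direction of each difference are given as a description, with no test. The log2 ratio is that of RPM (counts scaled by the library total), PR107 over CATAS8-79, and its interval is a 95% Clopper-Pearson interval, which covers counting error only. RPKM (the count scaled by unigene length and by library total) is given where levels of different unigenes are compared. No chromosome position is known for the unigenes, which come from a de novo assembly.

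Over all 51192 unigenes, 12.8% had a Fisher's exact test FDR ≤ 0.001 and a |log2 ratio| ≥ 1, and 57 of the 59 did so, which restates how they were chosen. The other two, Unigene31086 and Unigene39884, had few reads. Of the 59, 32 (54.2%) were higher in PR107 and 27 in CATAS8-79, where the clone of each value is that named in the header of its column. Of the 6726 listed unigenes, 55.1% were higher in PR107. Out of all 51192 unigenes, 7.25% were listed and higher in PR107 and 5.89% were listed and higher in CATAS8-79, while 7.14% were called here and higher in PR107 and 5.7% were called here and higher in CATAS8-79. The split of the calls moved with the scaling: 55.6% of 6577 calls were higher in PR107 with library totals and 50.3% of 6558 with TMM scaling. Of the 59, those called were 32 higher in PR107 to 25 in CATAS8-79 with library totals, and 30 to 27 with TMM scaling. By sign alone the 59 were 32 to 27 under both, which was fixed in advance because each |log2 ratio| was at least 1. The 32 to 27 split depended on unigene numbers, and was 20 higher in PR107 to 26 in CATAS8-79 without the last of 5 ranges of numbers. Without the last 2 ranges it was 20 to 16. The median absolute log2 ratio was 1.77 for the 59 unigenes and 1.78 for all 6726 listed unigenes, with counts below 3 reads set to 3. Together the 59 took 0.087% of the reads of PR107 and 0.0919% of those of CATAS8-79.

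The search words also took 10 unigenes whose best hits name something else. Of these, 6 are reverse transcriptases (RNA-directed DNA polymerases of retroelements), and the others are a tetracycline transporter, a ribosome recycling factor, the Swissprot hit cyclin-G-associated kinase and a subunit of the glycosylphosphatidylinositol anchor pathway. The other 49 name a cell cycle, replication or repair protein in at least 1 of the 2 databases. Of the 49, 29 were higher in PR107 and 20 in CATAS8-79. For 5 of them the 2 best hits disagree, and this is stated where they are described. The values nearest the fold threshold were a log2 ratio of -1.0 for the B2-type cyclin Unigene18960 and 1.01 for the CDK Unigene16907. Best hits were used for listed unigenes alone, so no value just outside the threshold could be tied to these words.

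**Figure D1:**
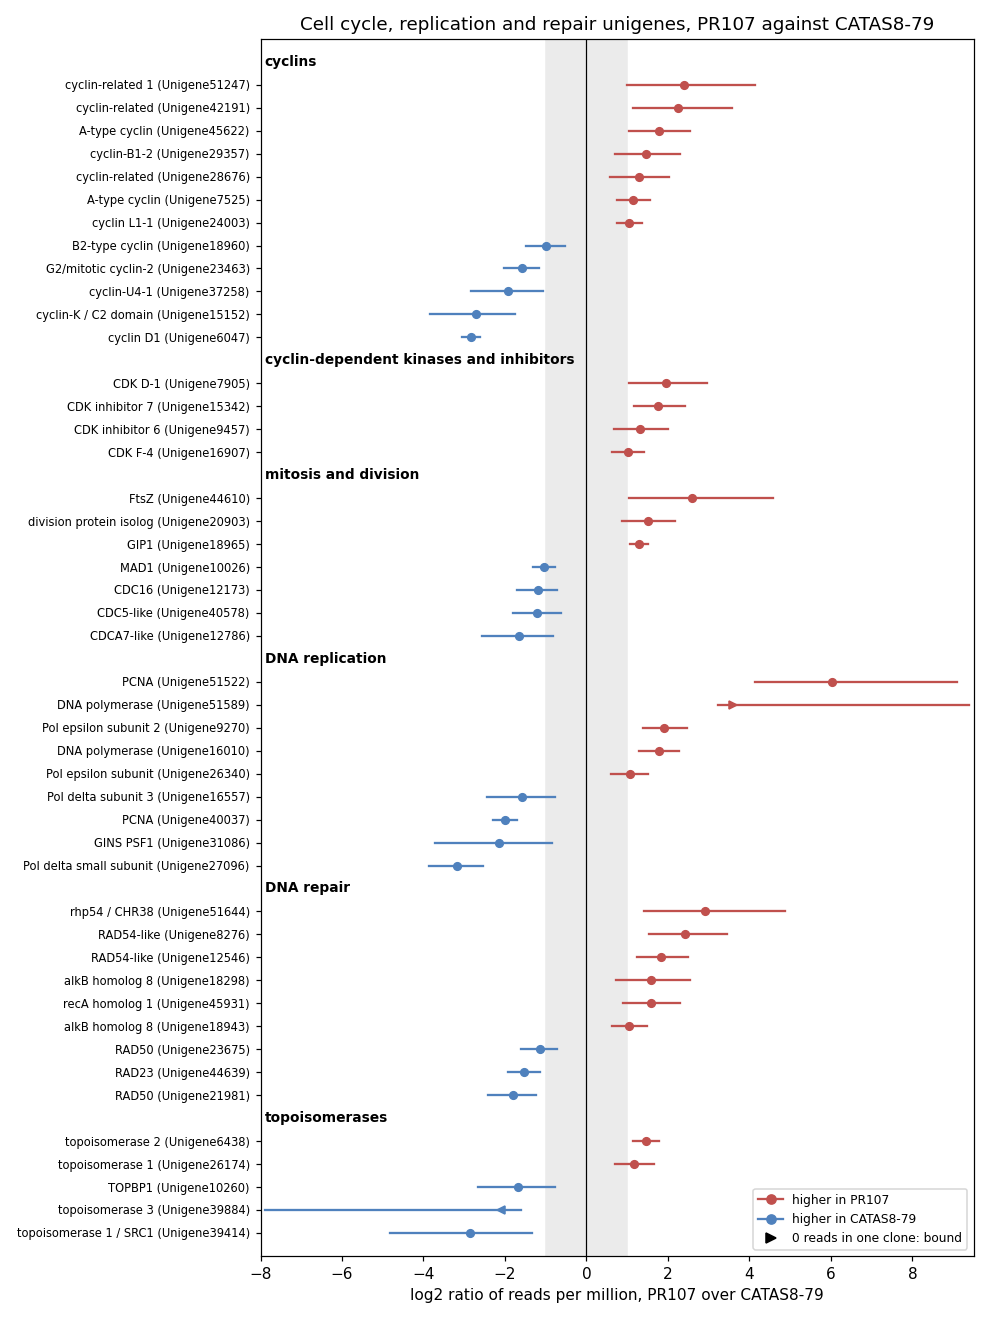
Log2 ratio of RPM (x axis, PR107 over CATAS8-79) for 46 of the 49 unigenes, one row per unigene, grouped by role. Dots are the ratios of 1 library per clone, lines are 95% counting intervals (cut off at the panel edge), triangles are bounds against 3 reads where a clone had 0 reads, and the grey band marks ratios under 2-fold. All 4 CDK and CDK inhibitor unigenes lie to the right, whereas the other roles lie on both sides.

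Among the cyclins, the D1-type cyclin was far higher in CATAS8-79, the B-type pair was also higher in CATAS8-79, and both A-type cyclins were higher in PR107. Unigene6047, whose hits are a D1-type cyclin of poplar and Cyclin-D1-1 of Arabidopsis, had 195 reads in PR107 and 1407 in CATAS8-79. It was the unigene with the most reads in CATAS8-79 of all 59. Its log2 ratio was -2.84 (interval -3.06 to -2.62), or 7.16-fold higher in CATAS8-79. In RPKM it stood at 14.1 in PR107, above 52.9% of all unigenes, and at 101 in CATAS8-79, above 90.7%. D-type cyclins pair with CDKs that phosphorylate the retinoblastoma-related protein and so open the way to DNA synthesis.

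B-type cyclins drive entry into mitosis, and the longer 2 of their unigenes had fewer reads in PR107. Unigene23463 (G2/mitotic-specific cyclin-2) had 63 reads in PR107 and 191 in CATAS8-79, a log2 ratio of -1.59 (interval -2.02 to -1.17). Unigene18960 (B2-type cyclin) had 58 reads in PR107 and 117 in CATAS8-79. Unigene29357, with 55 reads in PR107 and 20 in CATAS8-79, lay on the other side. It is 223 bp long, and only its Swissprot hit is Cyclin-B1-2, while an entry of its Nr hit names a subunit of NADH-ubiquinone oxidoreductase.

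The A-type unigenes shared a direction, higher in PR107. Unigene7525 (mitotic cyclin a2-type in Nr, Cyclin-A1-1 in Swissprot) had 171 reads in PR107 and 78 in CATAS8-79, and Unigene45622 (cyclin A) had 71 reads in PR107 and 21 in CATAS8-79. Summed, they had 242 reads in PR107 and 99 in CATAS8-79, a log2 ratio of 1.30 (interval 0.96 to 1.65).

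Cyclins named for other work were split as well. Unigene24003, an L-type cyclin of the kind tied to RNA splicing, had 271 reads in PR107 and 132 in CATAS8-79, the most reads of any cyclin in PR107. Unigene37258 (cyclin-U4-1, a P-type cyclin) had 15 reads in PR107 and 57 in CATAS8-79. Unigene15152 had 10 reads in PR107 and 66 in CATAS8-79, but only its Swissprot hit is cyclin-K, and its Nr hit is a C2 domain protein. The 3 unigenes called cyclin-related, Unigene51247, Unigene42191 and Unigene28676, had 26, 38 and 58 reads in PR107 and 5, 8 and 24 in CATAS8-79.

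By count, 7 of the 12 cyclin unigenes were higher in PR107. By reads, the sum ran the other way, with 1031 in PR107 and 2126 in CATAS8-79, a log2 ratio of -1.03 (interval -1.14 to -0.93). This sum rests on cyclin D1, a long unigene. With levels summed in place of reads, the 12 had 246 RPKM in PR107 and 262 RPKM in CATAS8-79, which are nearly equal. Without cyclin D1, the other 11 had 836 reads in PR107 and 719 in CATAS8-79. Taken by the search word alone, 17 unigenes with the tetracycline transporter and the PCNA unigenes among them gave a log2 ratio of -0.30.

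All 4 unigenes for the kinases and their inhibitors were higher in PR107. Unigene15342 (kip-related inhibitor 7) had 98 reads in PR107 and 29 in CATAS8-79, a log2 ratio of 1.77 (interval 1.16 to 2.42). Unigene9457 (inhibitor 1;2 in Nr, inhibitor 6 in Swissprot) had 72 reads in PR107 and 29 in CATAS8-79. Kip-related proteins bind complexes of CDKs and D-type cyclins. The inhibitors were higher in PR107 and cyclin D1 in CATAS8-79.

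Of the kinases, Unigene7905 is a CDK-activating kinase (CDK D-1), which phosphorylates other CDKs. It is 244 bp long and had 50 reads in PR107 and 13 in CATAS8-79, a log2 ratio of 1.95 (interval 1.05 to 2.96). Unigene16907 (CDK F-4) had 170 reads in PR107 and 85 in CATAS8-79, which lies at the threshold, and with TMM scaling in place of library totals its log2 ratio was 0.96. The 4 unigenes together had 390 reads in PR107 and 156 in CATAS8-79. No unigene for the A- or B-type CDKs that pair with these cyclins was found by the search words among the listed unigenes.

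**Figure D2:**
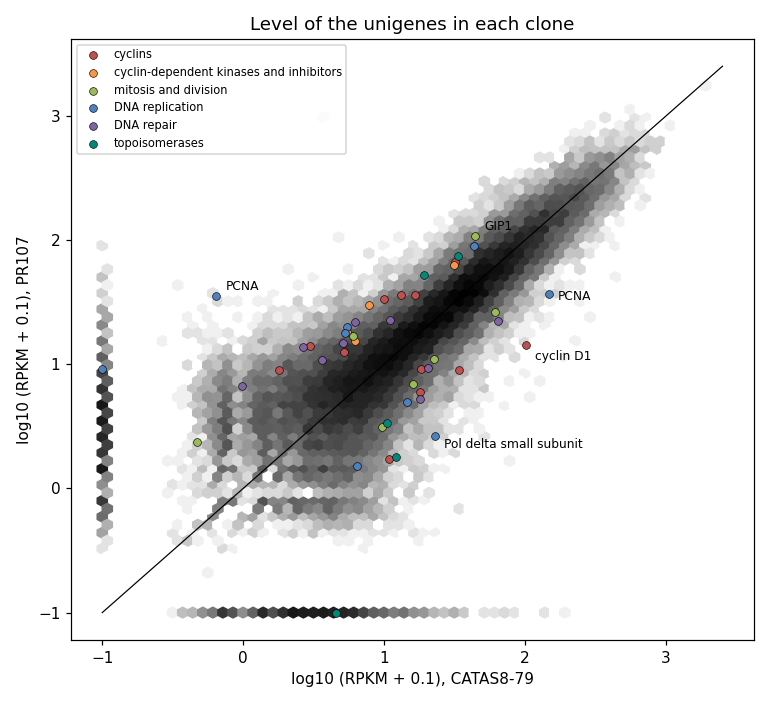
Level of each unigene as log10 (RPKM + 0.1), PR107 on the y axis and CATAS8-79 on the x axis, with coloured dots for the same 46 unigenes by role and grey hexagons for all 51192 unigenes (darker where more unigenes lie, on a log scale). The line marks equal levels, and unigenes with 0 reads lie at -1. Cyclin D1, the small subunit of DNA polymerase delta and one PCNA unigene are among those far below the line, and the other PCNA unigene lies far above it.

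For mitosis and division, 3 of 7 unigenes were higher in PR107 and 4 in CATAS8-79, with the checkpoint and anaphase-promoting complex unigenes in the second group. Unigene10026 (MAD1, a protein of the spindle checkpoint) is 2270 bp long and had 170 reads in PR107 and 350 in CATAS8-79, a log2 ratio of -1.03 (interval -1.30 to -0.76). Unigene12173 (cell division cycle 16, a subunit of the anaphase-promoting complex) had 51 reads in PR107 and 118 in CATAS8-79. The MAD1 and CDC16 differences were of about the same size.

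The mitotic unigene with the most reads went the other way. Unigene18965 is named GIP1, a small protein at the gamma-tubulin ring where microtubules start, and had 603 reads in PR107 and 249 in CATAS8-79, a log2 ratio of 1.29 (interval 1.07 to 1.51). Its level was 108 RPKM in PR107 and 44.3 RPKM in CATAS8-79, the highest RPKM in PR107 of the 49.

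The remaining division unigenes had few reads. Unigene12786 (cell division cycle-associated 7-like) had 16 reads in PR107 and 51 in CATAS8-79. Unigene40578, a MYB-type protein close to CDC5, is 205 bp long and had 37 reads in PR107 and 86 in CATAS8-79. Both were lower in PR107, whereas the next pair was higher there. Unigene44610 (FtsZ, which forms the division ring of the chloroplast and not of the cell) had 24 reads in PR107 and 4 in CATAS8-79. Unigene20903 (cell division protein isolog) had 82 reads in PR107 and 29 in CATAS8-79.

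At the replication fork, the subunits of DNA polymerase delta were higher in CATAS8-79 and those of polymerase epsilon in PR107. Unigene27096 (small subunit of polymerase delta, POLD2) had 22 reads in PR107 and 199 in CATAS8-79, a log2 ratio of -3.17 (interval -3.87 to -2.53), or 8.98-fold higher in CATAS8-79. Unigene16557 (subunit 3 of polymerase delta) had 18 reads in PR107 and 54 in CATAS8-79. Polymerase delta makes the lagging strand and polymerase epsilon the leading strand, as known from yeast.

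Unigene9270 (subunit 2 of polymerase epsilon) had 141 reads in PR107 and 38 in CATAS8-79, a log2 ratio of 1.90 (interval 1.38 to 2.46). Unigene26340 (polymerase epsilon subunit in Nr) had 128 reads in PR107 and 62 in CATAS8-79, but it is 208 bp long and its Swissprot hit is a cation channel. Only the first of these therefore carries the name polymerase epsilon in both databases.

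Unigene16010 and Unigene51589 share an Nr hit described as an ATP-binding, DNA-directed DNA polymerase, with no Swissprot hit. Unigene16010 had 160 reads in PR107 and 47 in CATAS8-79. Unigene51589 had 36 reads in PR107 and 0 in CATAS8-79, at least 12.1-fold higher in PR107 against a floor of 3 reads. Unigene31086 (PSF1 of the GINS complex, which opens the fork with the MCM helicase) had 6 reads in PR107 and 27 in CATAS8-79, a wide interval of its log2 ratio from -3.73 to -0.85.

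The PCNA unigenes went in opposite directions, and the largest ratio among the 59 with reads in both clones was here. Unigene51522 had 129 reads in PR107 and 2 in CATAS8-79, a log2 ratio of 6.02 (interval 4.14 to 9.08). Unigene40037 had 119 reads in PR107 and 480 in CATAS8-79, a log2 ratio of -2.0 (interval -2.30 to -1.71). Their lengths are 533 bp and 471 bp, and both have the same best hit, PCNA of soybean. In PR107 the 2 unigenes had nearly equal levels, 35.2 and 36.8 RPKM, whereas in CATAS8-79 their levels were 0.542 and 147 RPKM.

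Summed, the PCNA unigenes had 248 reads in PR107 and 482 in CATAS8-79, a log2 ratio of -0.95 (interval -1.17 to -0.72), which is under 2-fold. Another PCNA unigene, outside the search words, Unigene35933, had 65 reads in PR107 and 136 in CATAS8-79, and with it the sums were 313 reads in PR107 and 618 in CATAS8-79. Whether unigenes with the same hit are pieces of 1 gene, alleles or separate genes cannot be told apart from these tables, and near-identical copies can split their reads.

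**Figure D3:**
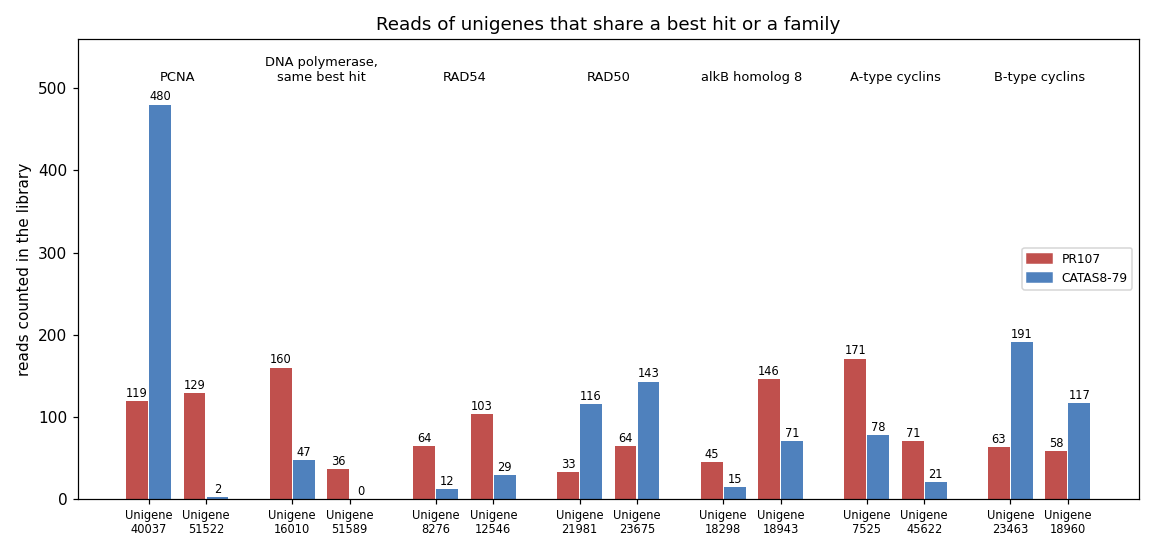
Reads counted in each library (y axis) for unigenes that share a best hit or a family, PR107 on the left of each pair of bars and CATAS8-79 on the right, 1 library each, with the count above each bar. The PCNA unigenes differ in direction, whereas within the other 6 pairs both unigenes lie on the same side.

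Of the 12 repair unigenes, 8 were higher in PR107, among them both unigenes of RAD54, a helicase-like protein of homologous recombination. Unigene8276 and Unigene12546 share the hit RAD54 of Arabidopsis. Unigene8276 had 64 reads in PR107 and 12 in CATAS8-79, and Unigene12546 had 103 reads in PR107 and 29 in CATAS8-79. Together their log2 ratio was 2.04 (interval 1.54 to 2.57). A listed RAD54 unigene with no Swissprot hit, Unigene15325, had 69 reads in PR107 and 21 in CATAS8-79, on the same side. Unigene51644, a chromatin remodeler whose Swissprot hit is the fission yeast RAD54, had 30 reads in PR107 and 4 in CATAS8-79.

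Further repair unigenes higher in PR107 are less closely tied to recombination in the nucleus. Unigene18943 and Unigene18298 (alkB homolog 8, of a family of oxygenases that remove alkyl groups) had 146 and 45 reads in PR107, against 71 and 15 in CATAS8-79. Unigene45931 is recA homolog 1 of the chloroplast in Swissprot and a replicase in Nr, and had 71 reads in PR107 and 24 in CATAS8-79.

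Higher in CATAS8-79 were RAD50 and RAD23, among others. Unigene21981 and Unigene23675 (RAD50, which holds broken ends together) had 33 and 64 reads in PR107, against 116 and 143 in CATAS8-79, and together a log2 ratio of -1.41 (interval -1.76 to -1.06). Unigene44639 (RAD23, which helps to recognise damaged bases in excision repair) had 73 reads in PR107 and 212 in CATAS8-79. RAD50 and RAD54 both serve the repair of breaks and lay on opposite sides here.

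In sum the 12 repair unigenes had 703 reads in PR107 and 689 in CATAS8-79, a log2 ratio of 0.04 (interval -0.11 to 0.19). The differences of single unigenes thus cancelled in the sum.

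Topoisomerases 1 and 2 were higher in PR107 and 3 further unigenes of the group in CATAS8-79. Unigene6438 (DNA topoisomerase II, which passes one double strand through another) had 295 reads in PR107 and 108 in CATAS8-79, a log2 ratio of 1.46 (interval 1.14 to 1.79). Unigene26174 (TOP1alpha, 239 bp) had 123 reads in PR107 and 55 in CATAS8-79. Unigene10260 (topoisomerase 2-binding protein 1, in animals a checkpoint protein and no topoisomerase) had 14 reads in PR107 and 45 in CATAS8-79.

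The last pair had few reads in PR107. Unigene39884 (topoisomerase 3) had 0 reads in PR107 and 13 in CATAS8-79, at least 4.3-fold higher in CATAS8-79. Unigene39414 had 4 reads in PR107 and 29 in CATAS8-79, and its Swissprot hit is topoisomerase 1 while its Nr hit is SRC1 of soybean. The 5 unigenes together had 436 reads in PR107 and 250 in CATAS8-79, a log2 ratio of 0.81 (interval 0.59 to 1.04). Without topoisomerase 2 the sums were 141 reads in PR107 and 142 in CATAS8-79.

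Of the 10 unigenes that name another protein, the reverse transcriptases had the larger differences. Unigene39206 had 0 reads in PR107 and 218 in CATAS8-79, at least 72.1-fold higher in CATAS8-79. Unigene43411 had 40 reads in PR107 and 3 in CATAS8-79, a log2 ratio of 3.75 (interval 2.10 to 6.09). Of the 6, 2 were higher in PR107 and 4 in CATAS8-79, so even these hits had no common direction. The 2 are numbered in the last of the 5 ranges, where 90.9% of the listed unigenes were higher in PR107. Unigene39206 is in the fourth, where 24% were. The tetracycline transporter, Unigene17696, had 1317 reads in PR107 and 461 in CATAS8-79.

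Among the 9 left out for their other words, 7 had the higher level in PR107 and 2 in CATAS8-79. They include 5 FtsH unigenes, proteases of chloroplasts and mitochondria that are named cell division protease after their bacterial relative, of which 4 were higher in PR107. Unigene46023 (cyclin-like F-box) had 16 reads in PR107 and 0 in CATAS8-79.

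The direction of a difference went with the unigene number, which the assembly assigned. When the numbers up to 51829 were divided into 5 equal ranges, all 10 unigenes in the fourth range were higher in CATAS8-79, and 12 of 13 in the last range were higher in PR107. Over all 6726 listed unigenes, 24% of those in the fourth range and 90.9% of those in the last were higher in PR107. In the first 3 ranges, 20 of the 36 unigenes were higher in PR107 and 16 in CATAS8-79. Unigene51522 for PCNA and Unigene45622 for cyclin A are numbered in the last range, and Unigene40037 for PCNA and topoisomerase 3 in the fourth. Cyclin D1, both CDK inhibitors, POLD2, RAD54, RAD50 and topoisomerase 2 are in the first 3. The part of the numbering in these differences was not tested.

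**Figure D4:**
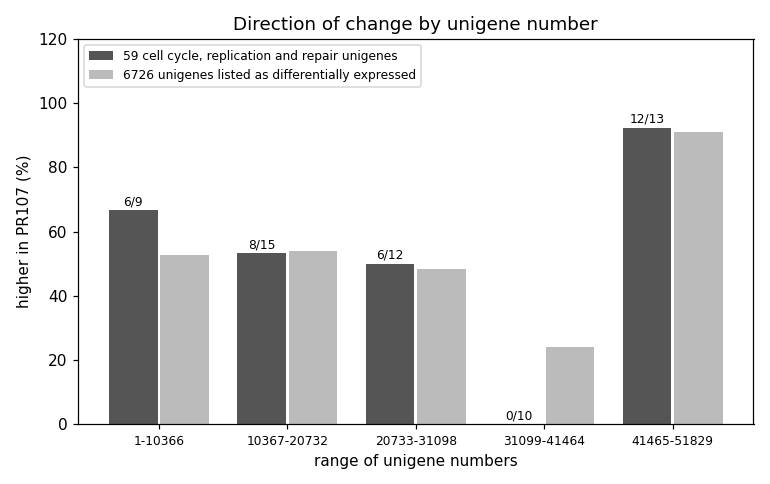
Share of unigenes higher in PR107 (y axis, %) by range of unigene numbers (x axis), for the 59 unigenes found by the search words (dark bars, with counts above) and all 6726 listed unigenes (light bars). Both shares are lowest in the fourth range and highest in the last.

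Further genes of the same pathways were found among the listed unigenes by a second set of words, for the replication fork, repair, G1/S control and mitosis. Of these 36 unigenes, 21 were higher in PR107 and 15 in CATAS8-79. The retinoblastoma-related protein, the target of D-type cyclins, had 2 unigenes with the same Swissprot hit and opposite directions. Unigene11843 had 1089 reads in PR107 and 424 in CATAS8-79, and Unigene7450 had 73 reads in PR107 and 154 in CATAS8-79.

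Of the 13 mitosis unigenes, 7 had more reads in PR107 and 6 in CATAS8-79. The Aurora kinases, which phosphorylate histone H3 in mitosis, were higher in CATAS8-79: Unigene6266 (Aurora-1) had 197 reads in PR107 and 771 in CATAS8-79, and Unigene39714 (Aurora-2) had 0 in PR107 and 70 in CATAS8-79. The 2 unigenes for SMC5, a protein of chromosome structure and repair, were also higher in CATAS8-79, with 230 and 321 reads in PR107 and 836 and 943 in CATAS8-79. Kinetochore unigenes lay on the other side. Unigene46114 (ndc80) had 38 reads in PR107 and 2 in CATAS8-79, and Unigene49973 (spindle and kinetochore-associated protein 1) had 31 in PR107 and 0 in CATAS8-79. Both are numbered in the last range and Aurora-2 in the fourth. From the first 3 ranges, where 48.2% to 54.1% of the listed unigenes were higher in PR107, 3 more kinetochore and centromere unigenes were also higher there. The part of the numbering was not tested. Unigene4958 (kinetochore protein) had 45 reads in PR107 and 13 in CATAS8-79, Unigene24991 (spindle and kinetochore-associated protein 1) had 30 in PR107 and 7 in CATAS8-79, and Unigene29003 (centromere protein C) had 49 in PR107 and 12 in CATAS8-79.

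Of the 10 replication unigenes, 7 had more reads in PR107, and of the 10 repair unigenes, 6 did. Replication protein A, which covers single-stranded DNA, was split between its large subunit unigenes: Unigene11746 had 2110 reads in PR107 and 1036 in CATAS8-79, and Unigene17397 had 332 reads in PR107 and 1033 in CATAS8-79. One hit of the replication list, Unigene9031, is the transcription factor TCP8 and no replication protein. The repair list holds 3 unigenes of the blue-light photoreceptor PHR2, all higher in PR107.

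Unigenes in lists of cell type markers also differed between the 2 libraries. In the list for leaf and green bark, 8 of 9 listed unigenes were higher in PR107. The summed level of the 9 was 860 RPKM in PR107 and 241 RPKM in CATAS8-79. Of this, Unigene37668 for photosystem I (256 bp) gave 515 RPKM in PR107 and 111 RPKM in CATAS8-79. The chlorophyll a-b binding protein, Unigene12717, went the other way, with 38 reads in PR107 and 147 in CATAS8-79. Photosystem I subunit N had 0 reads in CATAS8-79. Like several others of the 8, it is numbered in the last range, where 90.9% of all listed unigenes were higher in PR107. The markers of dividing cells were 17 unigenes, mostly histones, with Unigene35933 (PCNA) and Unigene9031 shared with the replication list. Of these, 15 had more reads in PR107, with the transcription factor Unigene9031 among them. The histone unigenes Unigene45001, Unigene41717, Unigene46755 and Unigene44421 among the 15 are numbered in the last range. The summed level of the 17 was 953 RPKM in PR107 and 445 RPKM in CATAS8-79. Unigene35933 was one of the 2 on the other side, with 65 reads in PR107 and 136 in CATAS8-79. The other, Unigene29870, is a histone in Swissprot and a bromodomain protein in Nr. The 2 PCNA unigenes of the 59, which went in opposite directions, are not counted here. In the list of latex markers, small rubber particle protein had 274 reads in PR107 and 51 in CATAS8-79. Hydroxynitrilase, also found for that list though not named as a planned marker, had 317 in PR107 and 54 in CATAS8-79. Whether it marks latex was not tested. An enolase went the other way, with 57 in PR107 and 115 in CATAS8-79. Rubber elongation factor and hevein were not found among the listed unigenes by name. Rubber transferase was planned as a latex marker, but it is not among the unigenes found for that list. The study reports a rubber transferase unigene as differing in the same direction as the enolase. In bulk latex, fewer cells of a type and less RNA per cell cannot be told apart, and the part of these cells in the differences above was not tested.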

How the data were processed

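Latex poly(A) RNA of PR107 and CATAS8-79 was sequenced on an Illumina HiSeq instrument, with 1 library per clone. Unigenes were built de novo by the authors (SOAPdenovo), and the deposited raw count is the number of reads placed on each. The deposited RPKM was recomputed here from count, length and total and differed by at most 5e-05. The deposited log2 ratio, p-value and FDR columns hold the authors' own comparison and were not used, except that the listed unigenes are those they called. Versions of the aligner are not given in the sources used here, and the genome build in the labels is of another organism and was not used.

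The search words and role lists were chosen with earlier results of these data known, and the reading of the best hits, which set 10 unigenes apart, was made after their values were seen. Role sums in the report follow that reading, and those by search word are in the closing section. The named unigenes are, in each role, the 4 with the most reads and the 2 with the largest change in each direction; others named were chosen after their values were seen. Fisher's exact test (two-sided) was run on the counts of 51192 unigenes with the library totals as margins and p-values adjusted by Benjamini-Hochberg, and compares the 2 libraries, not the clones. It was tested on simulated data. With 1 library per clone, no quasi-likelihood fit (edgeR) could be made. PCR reads without molecular identifiers are not independent molecules, so intervals and the floor of 3 reads cover counting error only. Alternatives were TMM (edgeR 4.0.16) and median-ratio (DESeq2 1.42.0) scaling, the Audic-Claverie test, the edgeR exact test with an assumed coefficient of variation, filters on reads, length and unigene number, and other ways to choose and sum unigenes. Python 3.11.15, scipy 1.17.1, pandas 2.3.3 and R 4.3.3 were used. Of 50196 RefSeq genes of the species, 0 matched a unigene identifier, so unigenes are named by their deposited hits and no sequences are shown. Some of the repair unigenes are counted in the totals and are not reported singly here.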

Additional observations from a re-analysis of the deposited data

How the results depend on the processing

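No paired analysis was possible because each clone had 1 library, and no replicate could be left out. Under TMM and median-ratio scaling, which moved every log2 ratio by -0.05 and -0.03, the 59 unigenes kept their directions (32 higher in PR107, 27 in CATAS8-79). Shifts of this size could not turn a direction, since each of the 59 had a |log2 ratio| of at least 1. Of 6577 unigenes called over the whole table, the number was 1515 when the edgeR exact test assumed a biological coefficient of variation of 0.2, 190 at 0.4, and 2775 at a fold threshold of 4. Of the 57 called here, 10 passed at 0.2, 2 at 0.4 (Unigene51522 for PCNA and the reverse transcriptase Unigene39206), and 21 at a fold threshold of 4. These counts, and the roles read from best hits below, were added after seeing the data. The median log2 ratio of the 59 was 1.05, and -1.14 without the last of 5 ranges of unigene numbers. Without the last 2 ranges it was 1.05, where the fourth range holds only unigenes higher in CATAS8-79. The median can jump in this way since no ratio of the 59 lies between -1 and 1, by choice of the list. Sums of reads over the unigenes found by a role's words moved with single members. Without the member with the most reads, the log2 ratio was 1.95 in place of 1.18 for CDKs, 0.00078 in place of 0.81 for topoisomerases, 0.56 in place of 0.14 for repair, 0.14 in place of -0.25 for DNA polymerases, -1.03 in place of -0.30 for cyclins and -0.44 in place of -0.69 for cell division proteins. With roles read from the best hits, it was 0.35 for DNA polymerases, -1.03 for cyclins and -0.44 for cell division proteins, and with RPKM summed it was -0.19 for the 17 cyclins by word. Of the 59, the split was 32 higher in PR107 to 27 in CATAS8-79, and it turned to 20 to 26 (43.5% higher in PR107) without the last range of numbers and was 20 to 20 with the Swissprot text alone. In the other alternatives more than 50% were higher in PR107. Over the whole table, 3657 calls were higher in PR107 and 2920 in CATAS8-79, against 3298 and 3260 under TMM and 3391 and 3188 under median-ratio scaling. Under TMM, Unigene16907 and Unigene28676 were no longer called, whereas Unigene31086 and Unigene39884 were.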
